A study of Homo sapiens with 4 samples.

Results

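Plasminogen activation and pericellular proteolysis were examined through 9 genes: the plasminogen activators PLAT and PLAU, the urokinase receptor PLAUR, the inhibitor SERPINE2, the plasminogen binding pair ANXA2 and S100A10, the coagulation initiator F3 and the inhibitors TFPI and TFPI2. They were found by symbol as 9 of the 23228 gene symbols in the count files, and all 9 were among the 12706 genes with enough counts to be tested. The members were chosen from earlier values of the same EC359 against vehicle contrast, in which PLAT was higher and ANXA2 lower. Their differences between treatments, and whether they passed the threshold of the fit over all genes, are therefore given as a description and are not independent evidence. RNA came from ES2, an established human ovarian cancer cell line kept in serum-containing medium, after treatment for 12 h. The treatments were EC359 at 10 nM and a vehicle of 0.1% DMSO. EC359 is a small molecule inhibitor of LIFR, the leukemia inhibitory factor receptor. Each treatment had 2 libraries of polyadenylated RNA, and both treatments used the same cell line without a genetic change named in the labels.

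Plasminogen is a circulating zymogen that tissue-type and urokinase-type activators cleave to plasmin, a broad protease that dissolves fibrin and activates other matrix-degrading enzymes. Cells concentrate this reaction at their surface, where the urokinase receptor holds the activator and proteins such as the annexin A2 and S100A10 complex bind plasminogen, while serpins inhibit the activators. Tissue factor, the product of F3, starts coagulation at the cell surface, and tumour cells often carry it together with the plasminogen system.

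The 2 vehicle libraries held 25603886 and 25572494 reads on genes, and the EC359 libraries 31707553 and 29914788. Values are given as normalized counts, which are the deposited counts scaled to one common library size with TMM factors. Of the 11 ovarian epithelial markers, 6 reached 10 counts in a library. The sum over the 11 was 15167 to 16368 normalized counts in vehicle and higher in EC359, at 16532 to 16619. All 4 mesenchymal markers reached 10 counts, and their sum was lower with EC359, at 223069 to 230404 normalized counts in vehicle and 207956 to 210319 in EC359. VIM, the vimentin gene, made up most of that sum, at 150994 and 157710 in vehicle and 135415 and 139151 in EC359. The other mesenchymal markers did not share a direction. FN1 overlapped, at 64080 and 64711 in vehicle and 64667 and 63540 in EC359. CDH2 was higher, at 4131 and 4111 in vehicle and 4276 and 4170 in EC359. ZEB1 was lower, at 3864 and 3872 in vehicle and 3598 and 3458 in EC359. The part of these markers in the members' values was not tested. Of the epithelial sum, KRT7 and KRT18 made up most, MUC16 was at 0 in every library, and EPCAM, CDH1 and NAPSA had at most 2 counts in any library. Of the 4 leukocyte markers, CD3E was at 0 and PTPRC had at most 1 count, and only CD68 reached 10 counts. CD68 had 2552 and 2717 normalized counts in vehicle and 2577 and 2527 in EC359. Of the 4 endothelial markers, CDH5 and KDR reached 10 counts, while PECAM1 and VWF had at most 2. CDH5 had 3465 and 3704 normalized counts in vehicle and 3467 and 3553 in EC359. Of the 4 fibroblast markers, PDGFRA and COL1A1 reached 10 counts and LUM was at 0. COL1A1 had 13330.5 and 15117 normalized counts in vehicle and 13235 and 13335 in EC359.

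Of the 9 genes, PLAT rose and ANXA2 fell at an adjusted p under 0.01 in the fit over all genes, and the other 7 were not called. The same threshold called 1.09% of all genes tested, with 0.299% higher and 0.795% lower, and nothing is read from the members' count against these shares, since the 2 calls restate the contrast that chose the members. At an adjusted p under 0.05, which 4.32% of all genes passed, the count of members was 5, with PLAT, F3 and TFPI2 higher and ANXA2 and S100A10 lower. Both EC359 libraries lay outside the range of the vehicle libraries for 7 of the 9, which also held for 51.5% of all genes. The median log2 fold change of the members was 0.10, beside 0.0029 over all genes tested, and the median absolute log2 fold change was 0.21, beside 0.091. In bulk RNA, fewer cells with a transcript and less of it per cell cannot be told apart. With 1 library left out, the spread comes from the treatment that still has 2, and the lone library is assumed to vary like them. Without EC359 replicate 1, edgeR's quasi-likelihood test called 0 genes in the whole table (1460 at an unadjusted p under 0.05), and without EC359 replicate 2 it called 2, neither of them a member. The log2 fold changes stayed close, at 0.31 in both cases for PLAT and at -0.33 and -0.31 for ANXA2. Without vehicle replicate 1 or vehicle replicate 2, S100A10 and TFPI2 were called beside PLAT and ANXA2.

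**Figure D1:**
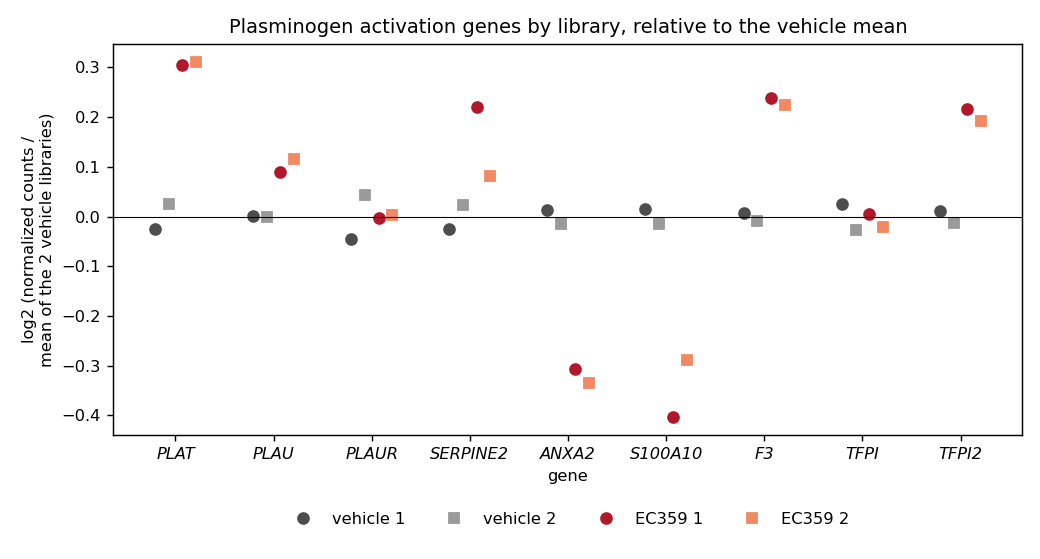
Normalized counts of the 9 genes in each library, as log2 of the ratio to the mean of the 2 vehicle libraries (vertical axis), by gene (horizontal axis). Each point is 1 library. Both EC359 points of PLAT, PLAU, SERPINE2, F3 and TFPI2 lie above both vehicle points, those of ANXA2 and S100A10 lie below, and the treatments overlap for PLAUR and TFPI.

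PLAT encodes tissue-type plasminogen activator, the secreted protease best known for dissolving fibrin clots. Its level was 17916 and 18545 normalized counts in the vehicle libraries and 22531 and 22624 in the EC359 libraries. Each EC359 library lay above each vehicle library, and the gap between treatments was larger than the gap between replicates. The means were 18230 ± 444 in vehicle and 22578 ± 66.0 in EC359 (SD, n = 2 each), a difference of 23.8% and a log2 fold change of 0.31 with a standard error of 0.031. PLAT lies at chr8:42032236-42065227 on the minus strand of GRCh37, with 14 exons in its canonical transcript, and none of that transcript's 50-base windows occurred elsewhere in the genome.

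PLAU encodes urokinase-type plasminogen activator, the protease that works at the cell surface through its receptor. It had 27128 and 27090 normalized counts in vehicle and 28847 and 29388 in EC359. The vehicle libraries were almost equal and both EC359 libraries were higher, but the difference was small, with means of 27109 ± 26.6 and 29118 ± 383 (SD, n = 2 each) and a log2 fold change of 0.10 (SE 0.028). PLAU was not called at either threshold. The gene spans chr10:75668935-75677254 on the plus strand of GRCh37, and 18.3% of its exon bases overlap C10orf55 on the other strand. The strand setting of the counting was not given in the sources used here, and C10orf55 itself held between 74 and 93 counts in a library.

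PLAUR encodes the urokinase receptor, a lipid-anchored surface protein. It had 6264 and 6669 normalized counts in vehicle and 6458 and 6483 in EC359, so both EC359 libraries fell between the vehicle libraries. The means were 6466 ± 286 and 6470 ± 18.1 (SD, n = 2 each), and the log2 fold change of 0.00090 was far under its standard error of 0.038. The gene lies at chr19:44150247-44174699 on the minus strand of GRCh37.

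SERPINE2 encodes protease nexin 1, a serpin that inhibits thrombin, urokinase and tissue-type activator near the cell surface. It had 619 and 640 normalized counts in vehicle and 733 and 666 in EC359. Both EC359 libraries were higher, but they differed from each other by more than the lower one differed from the vehicle libraries. The means were 629 ± 14.7 and 700 ± 47.7 (SD, n = 2 each), with a log2 fold change of 0.15 (SE 0.075), and the gene was not called. The value was 0.081 without EC359 replicate 1 and 0.22 without EC359 replicate 2. SERPINE2 lies at chr2:224839762-224904035 on the minus strand of GRCh37.

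The ratio of PLAU to PLAT lay outside the vehicle range in both EC359 libraries, at 1.51 and 1.46 in vehicle and 1.28 and 1.30 in EC359. The ratio is of normalized counts within a library and so carries the transcripts' lengths, and it is a description of the same counts.

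ANXA2 encodes annexin A2, a calcium-dependent membrane-binding protein that holds plasminogen and tissue-type activator at the cell surface. It had 27565 and 27041 normalized counts in vehicle and 22082 and 21660 in EC359. Both EC359 libraries were below both vehicle libraries by more than the gap between replicates. The means were 27303 ± 370 and 21871 ± 299 (SD, n = 2 each), a change of -19.9% and a log2 fold change of -0.32 (SE 0.029). The gene lies at chr15:60639333-60695082 on the minus strand of GRCh37, with 13 exons in its canonical transcript.

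ANXA2 has 3 processed copies in the genome, ANXA2P1, ANXA2P2 and ANXA2P3, which were counted as genes of their own. Reads of 50 bases from the identical stretches cannot be assigned to one of them. Against the 1017 coding bases of ANXA2, ANXA2P2 was 98.4% identical with 16 differing bases, ANXA2P1 93.8% over 926 aligned bases and ANXA2P3 92.1% over 1007. Of the 968 coding windows of 50 bases, 59.4% were identical in ANXA2P2 and 89.7% differed from it at no more than 2 bases. Over the whole canonical transcript, 44.3% of the 50-base windows of ANXA2 occurred elsewhere in the genome, beside 4.62% for F3, 1 window of 3810 for TFPI and 0 for the other 6 members.

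A pair of 50-base windows shows both situations, as coding strand sequence of GRCh37 with capitals at the bases that differ from ANXA2. The first window, coding bases 91 to 140 in exon 3 at chr15:60674549-60674598, is identical in ANXA2P2 at chr9:33624362-33624411, and it differs at 5 bases in ANXA2P1 and 6 in ANXA2P3.
ANXA2, coding bases 91 to 140: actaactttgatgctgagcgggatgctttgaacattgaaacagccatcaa
ANXA2P2, same window: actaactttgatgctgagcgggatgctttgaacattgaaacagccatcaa
ANXA2P1, same window: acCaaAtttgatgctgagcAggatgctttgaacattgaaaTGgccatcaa
ANXA2P3, same window: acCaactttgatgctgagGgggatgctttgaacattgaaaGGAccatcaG
The second, coding bases 171 to 220 in exon 4 at chr15:60656651-60656700, is where ANXA2P2 differs most, at 5 bases. Counted from 1 at the window's 5′ end with the ANXA2 base first, these are T8G, A20G, G21A, C45T and G50T.
ANXA2, coding bases 171 to 220: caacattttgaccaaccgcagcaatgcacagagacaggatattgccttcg
ANXA2P2, same window: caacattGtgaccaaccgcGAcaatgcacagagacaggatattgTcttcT
ANXA2P1, same window: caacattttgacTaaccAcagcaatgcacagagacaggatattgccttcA
ANXA2P3, same window: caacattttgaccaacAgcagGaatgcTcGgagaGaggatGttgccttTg
A read from the first window fits ANXA2 and ANXA2P2 equally, whereas one from the second can tell them apart.

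Reads counted on ANXA2P2 numbered 17454 and 17013 in vehicle and 14645 and 13798 in EC359 as normalized counts, a log2 fold change of -0.28 (SE 0.036) that passed the test with an adjusted p of 0.00333. ANXA2P1 also fell, from 1413 and 1372 to 1030 and 1100 normalized counts, with a log2 fold change of -0.39 (SE 0.059, adjusted p = 0.00705). Both copies were lower in both EC359 libraries, the direction of ANXA2 itself. ANXA2P3 had 3452 and 3102 normalized counts in vehicle and 3150 and 2793 in EC359, and its log2 fold change of -0.14 (SE 0.064) did not pass, with an adjusted p of 0.238 and overlapping treatments. Without 1 library that value lay between -0.23 (EC359 replicate 1) and -0.057 (EC359 replicate 2), with -0.061 without vehicle replicate 1 and -0.22 without vehicle replicate 2. The call of ANXA2P2 was lost with length trends removed, and that of ANXA2P1 with length trends removed, total counts only or no filter. These p-values come from the quasi-likelihood test of edgeR and were adjusted over all genes by the Benjamini-Hochberg method. ANXA2 took 55.3% and 55.7% of the counts on the 4 genes in vehicle and 54.0% and 55.0% in EC359, so its share moved little while the sum of the 4 went from 49883 and 48529 to 40908 and 39351 normalized counts. With the 4 added into 1 feature, a setting chosen after seeing the data, the log2 fold change was -0.29 and the feature was called lower. The copies' reads are not independent of those of ANXA2, and how many came from the ANXA2 transcript was not tested.

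**Figure D2:**
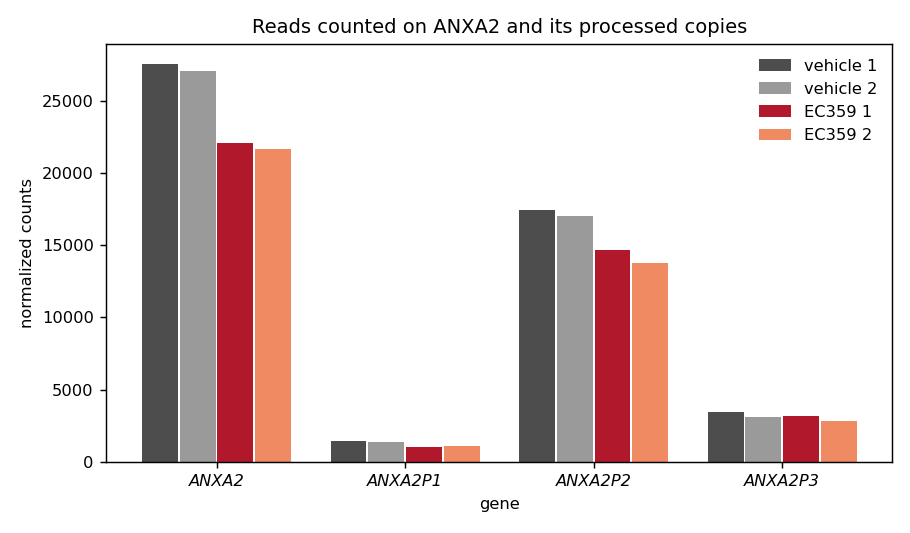
Normalized counts (vertical axis, from 0) of ANXA2 and its 3 processed copies, by gene, with 1 bar per library. The EC359 bars of ANXA2, ANXA2P1 and ANXA2P2 are shorter than both vehicle bars, and those of ANXA2P3 overlap with them.

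S100A10 encodes p11, the small S100 protein that pairs with annexin A2 and offers plasminogen a binding site. It had 1414 and 1383 normalized counts in vehicle and 1058 and 1145 in EC359. Both EC359 libraries were lower, with means of 1398 ± 21.7 and 1101 ± 61.5 (SD, n = 2 each) and a log2 fold change of -0.35 (SE 0.060). This was the largest absolute log2 fold change of the 9, but the error was also larger than for ANXA2, and S100A10 passed only the looser threshold. The ratio of ANXA2 to S100A10 was 19.5 and 19.6 in vehicle and 20.9 and 18.9 in EC359, on either side of the vehicle values. The gene lies at chr1:151955391-151966335 on the minus strand of GRCh37.

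F3 encodes tissue factor, the membrane receptor for factor VII that starts coagulation. Its level was 1266 and 1252 normalized counts in vehicle and 1485 and 1472 in EC359. The replicates of each treatment were close, and both EC359 libraries were higher, with means of 1259 ± 9.98 and 1478 ± 9.48 (SD, n = 2 each) and a log2 fold change of 0.23 (SE 0.053). F3 passed only the looser threshold. It lies at chr1:94994729-95007315 on the minus strand of GRCh37.

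TFPI2 and TFPI encode Kunitz-type inhibitors, of which TFPI blocks the tissue factor and factor VIIa complex and TFPI2 inhibits plasmin and other serine proteases in the matrix. TFPI2 had 5467 and 5374 normalized counts in vehicle and 6302 and 6197 in EC359, so both EC359 libraries were higher. Its means were 5421 ± 65.6 and 6249 ± 74.5 (SD, n = 2 each), with a log2 fold change of 0.21 (SE 0.034), and it passed only the looser threshold. TFPI had 14602 and 14089 normalized counts in vehicle and 14405 and 14143 in EC359, with both EC359 libraries inside the vehicle range. Its means were 14346 ± 363 and 14274 ± 186 (SD, n = 2 each) and its log2 fold change -0.0072 (SE 0.032). The ratio of TFPI to F3 was 11.5 and 11.3 in vehicle and 9.70 and 9.61 in EC359. TFPI2 lies at chr7:93514708-93520065 and TFPI at chr2:188328957-188430487, both on the minus strand of GRCh37.

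Per kilobase of canonical transcript, the 9 genes had the same order of levels in both treatments. From the highest, the order was ANXA2, PLAU, PLAT, PLAUR, TFPI, TFPI2, S100A10, F3 and SERPINE2. ANXA2 had a mean level of 17569 normalized counts per kilobase in vehicle and 14074 in EC359, and SERPINE2 had 283 and 314. The distance from ANXA2 to PLAU was smaller in EC359, where PLAU stood at 12428 normalized counts per kilobase, than in vehicle, where it stood at 11570. PLAT and PLAUR moved apart, with PLAT at 5954 and 7373 normalized counts per kilobase in vehicle and EC359 and PLAUR at 4727 and 4730. None of the 8 pairs of neighbours in that order overlapped between libraries of the same treatment. The counts cover whole genes, whereas each length is that of the canonical transcript alone. How far the order depends on that choice of length was not tested. The level of ANXA2 on this scale depends on how reads were assigned among it and its copies. Alignments that were not unique were left out of the counts, and how many of them came from ANXA2 was not tested.

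**Figure D3:**
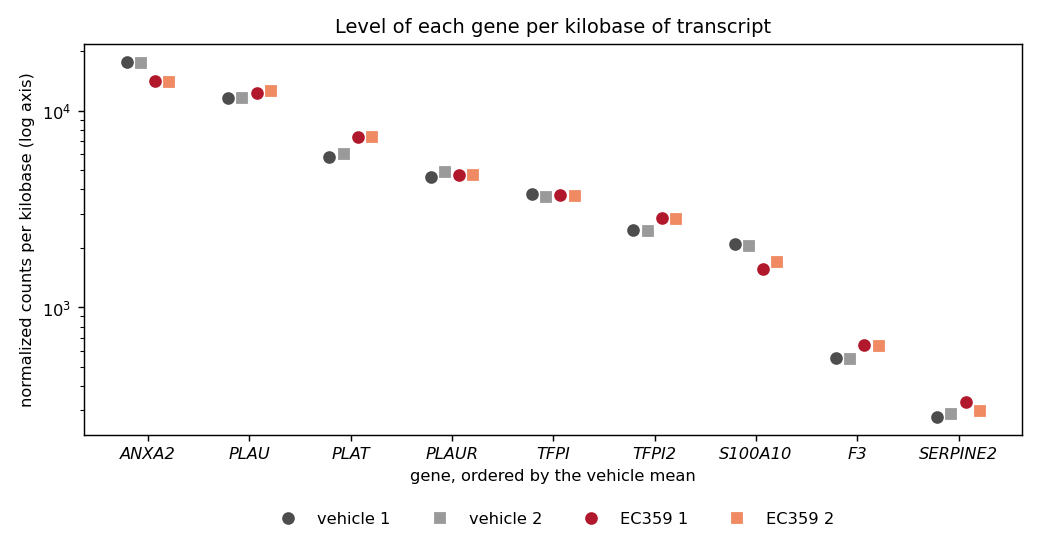
Level of each gene in normalized counts per kilobase of canonical transcript (vertical log axis), with genes ordered by the vehicle mean (horizontal axis) and 1 point per library. The order from ANXA2 down to SERPINE2 is the same in both treatments.

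The 250 bases before the start site were searched on both strands in the RefSeq promoter table of GRCh38.p14, which held 10 promoters for 8 of the 9 members. PLAT is not in the table. The AP-1 letters TGANTCA were found in 4 of the 10 promoters, those of PLAUR, ANXA2, F3 and TFPI2, and in 6.57% of all 35116 promoters. The letters were chosen with earlier results of these data known, and nothing is read from these shares. Positions count back from the start site, where -1 is the base before it. F3 had the letters at -223 and -210, PLAUR at -186, ANXA2 at -127 and TFPI2 at -87. These 4 promoters are shown because they share the letters while their transcripts differ in direction, with F3 and TFPI2 at positive log2 fold changes, ANXA2 at a negative one and PLAUR near 0. They are written 5′ to 3′ on the genes' own minus strand with the AP-1 letters in capitals.
F3, chr1:94541760-94542009: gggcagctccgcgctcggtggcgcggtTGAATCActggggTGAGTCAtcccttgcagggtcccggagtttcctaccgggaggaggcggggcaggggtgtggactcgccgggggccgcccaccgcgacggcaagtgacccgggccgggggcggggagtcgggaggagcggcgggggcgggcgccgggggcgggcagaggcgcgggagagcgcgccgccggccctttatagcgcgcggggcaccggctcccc
TFPI2, chr7:93890754-93891003: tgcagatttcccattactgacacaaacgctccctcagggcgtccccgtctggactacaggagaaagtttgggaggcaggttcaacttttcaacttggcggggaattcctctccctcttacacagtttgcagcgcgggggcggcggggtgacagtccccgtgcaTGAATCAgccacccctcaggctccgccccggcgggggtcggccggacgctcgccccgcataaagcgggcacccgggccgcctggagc
ANXA2, chr15:60397987-60398236: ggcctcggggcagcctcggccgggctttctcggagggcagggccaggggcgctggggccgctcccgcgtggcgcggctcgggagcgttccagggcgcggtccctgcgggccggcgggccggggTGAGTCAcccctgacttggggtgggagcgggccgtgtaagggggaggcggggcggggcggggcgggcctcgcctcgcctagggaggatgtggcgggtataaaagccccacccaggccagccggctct
PLAUR, chr19:43670170-43670419: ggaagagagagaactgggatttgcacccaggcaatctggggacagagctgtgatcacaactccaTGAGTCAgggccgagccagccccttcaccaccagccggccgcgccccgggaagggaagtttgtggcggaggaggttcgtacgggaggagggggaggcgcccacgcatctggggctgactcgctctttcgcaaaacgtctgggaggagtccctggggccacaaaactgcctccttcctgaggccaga
The STAT letters TTCNNNGAA, searched because LIFR signals through STAT3, were found in 0 of the 10 promoters and in 6.57% of all promoters. The TATA letters TATAAA were found in the promoters of ANXA2 at -31 and F3 at -28 and in 10.7% of all. The hypoxia core ACGTG was found in the promoter of 1 member, SERPINE2, where a single palindrome reads on both strands, and in 18.5% of all. The GC box GGGCGG was found in 1 or more promoters of PLAU, SERPINE2, ANXA2, S100A10, F3 and TFPI2 and in 42.6% of all. A match is a description of the letters and not a binding site, and its absence says only that the letters are not in this window.

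Around the members, a wider list of 105 genes of the pathway was examined, of which 68 had enough counts to be tested. Of these, 3 rose and 4 fell at an adjusted p under 0.01, beside the shares of all genes given above, and 2 of the 4 were the copies of ANXA2. The median log2 fold change of the tested genes was 0.0066 and the median absolute value 0.12, beside 0.0029 and 0.091 over all genes. With the copies of ANXA2 taken out, 65 genes were tested, 3 rose and 2 fell. Their medians were 0.015 and 0.11. The counts with 1 library left out, which follow, include the copies. Without EC359 replicate 1 or EC359 replicate 2, edgeR called 0 of the 68 tested. At an unadjusted p under 0.05 these fits held 22 and 18 of them, beside 11.3% and 11.2% of all genes. Without vehicle replicate 1 or vehicle replicate 2, 12 of 69 were called, beside 2.99% and 4.13% of all genes. Of the 37 that were not tested, 36 had under 10 counts in every library. The list was chosen with earlier results of these data known, so nothing is read from the counts called in its role groups. The p-values of its genes come from the same edgeR fit, adjusted over all genes tested.

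Among plasminogen and its inhibitors, 4 of 10 genes were tested and 1 rose, beside 1.09% of all genes called. PLG, which encodes plasminogen itself, had 0 counts in all 4 libraries. SERPINB2, which encodes plasminogen activator inhibitor 2, had 17297 and 16699 normalized counts in vehicle and 19799 and 19218 in EC359. It rose in both EC359 libraries, with a log2 fold change of 0.20 (SE 0.032, adjusted p = 0.00929). The call was lost with RLE factors, with no filter and with a filter of 10 counts in every library, at log2 fold changes of 0.20. SERPINI1, the neuroserpin gene, had a log2 fold change of 0.21 (SE 0.17, adjusted p = 0.522).

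Among plasminogen receptors and the receptors that clear activator and inhibitor complexes, 9 of 10 genes were tested and 2 fell. Of all genes tested, 0.795% were called lower. ENO1 encodes alpha-enolase, a glycolytic enzyme that also binds plasminogen when it is at the cell surface. It had 115428 and 117311 normalized counts in vehicle and 97106 and 96723 in EC359, a log2 fold change of -0.26 (SE 0.026, adjusted p = 0.00112). AHNAK encodes a very large scaffold protein that binds the annexin A2 and S100A10 complex. It had 28508 and 27937 normalized counts in vehicle and 24982 and 24277 in EC359, a log2 fold change of -0.20 (SE 0.030, adjusted p = 0.00705), and it was not called with total counts only or with no filter. The lipoprotein receptors LRP8 and VLDLR had log2 fold changes of -0.28 (SE 0.047, adjusted p = 0.0114) and -0.29 (SE 0.061, adjusted p = 0.0254), and MRC2, an endocytic collagen receptor that associates with the urokinase receptor, 0.38 (SE 0.15, adjusted p = 0.178).

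Among the matrix metalloproteinases and their inhibitors, 15 of 19 genes were tested and 2 rose, both of them inhibitors. TIMP2 had 4646 and 4657 normalized counts in vehicle and 5537 and 5704 in EC359, a log2 fold change of 0.27 (SE 0.035, adjusted p = 0.00337). TIMP3, the matrix-bound inhibitor, had 6164 and 5985 normalized counts in vehicle and 7353 and 7504 in EC359, a log2 fold change of 0.29 (SE 0.034, adjusted p = 0.00236). The protease with the largest value was MMP17, a membrane-anchored metalloproteinase at low counts. It had 37.8 and 49.0 normalized counts in vehicle and 78.7 and 96.2 in EC359, a log2 fold change of 1.01 (SE 0.22) that did not pass at an adjusted p of 0.0289.

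In the other 5 role groups, edgeR called 0 genes at an adjusted p under 0.01. At an unadjusted p under 0.05, which 21.6% of all genes tested passed, these groups held 2 of the 7 tested integrin partners of the urokinase receptor, 1 of the 3 tested surface serine proteases and inhibitors, 6 of the 13 cathepsins, ADAMs and cystatins, 2 of the 8 coagulation genes and protease-activated receptors, and 4 of the 6 growth factor genes. ITGAV, the alpha subunit of vitronectin receptors, had a log2 fold change of 0.21 (SE 0.043, adjusted p = 0.0262), and its partner ITGB3 -0.21 (SE 0.055, adjusted p = 0.0556). CTSK, a collagen-degrading cysteine protease, had -0.25 (SE 0.056, adjusted p = 0.0344), and CTSD, a lysosomal aspartic protease, 0.25 (SE 0.070, adjusted p = 0.071). TGFB1, whose latent product plasmin can release, had 0.26 (SE 0.084, adjusted p = 0.103). ADAM15, a metalloprotease with a disintegrin domain, had -0.16 (SE 0.047, adjusted p = 0.0786). VEGFA, an angiogenic factor, had -0.13 (SE 0.041, adjusted p = 0.0973), and IGFBP3, which binds insulin-like growth factors, -0.19 (SE 0.074, adjusted p = 0.163).

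The remaining named genes of these groups also did not pass. F2RL1, the protease-activated receptor 2 gene, had a log2 fold change of 0.12 (SE 0.049, adjusted p = 0.189). PROS1, a cofactor of activated protein C, and its relative GAS6 had 0.13 each (SE 0.065 and 0.051, adjusted p = 0.273 and 0.174). ITGA3, an integrin alpha subunit, had -0.052 (SE 0.042, adjusted p = 0.512), and FAP, a surface serine protease of activated stroma, -0.028 (SE 0.21, adjusted p = 0.962). The signs of ITGA3 and FAP changed when single libraries were left out.

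**Figure D4:**
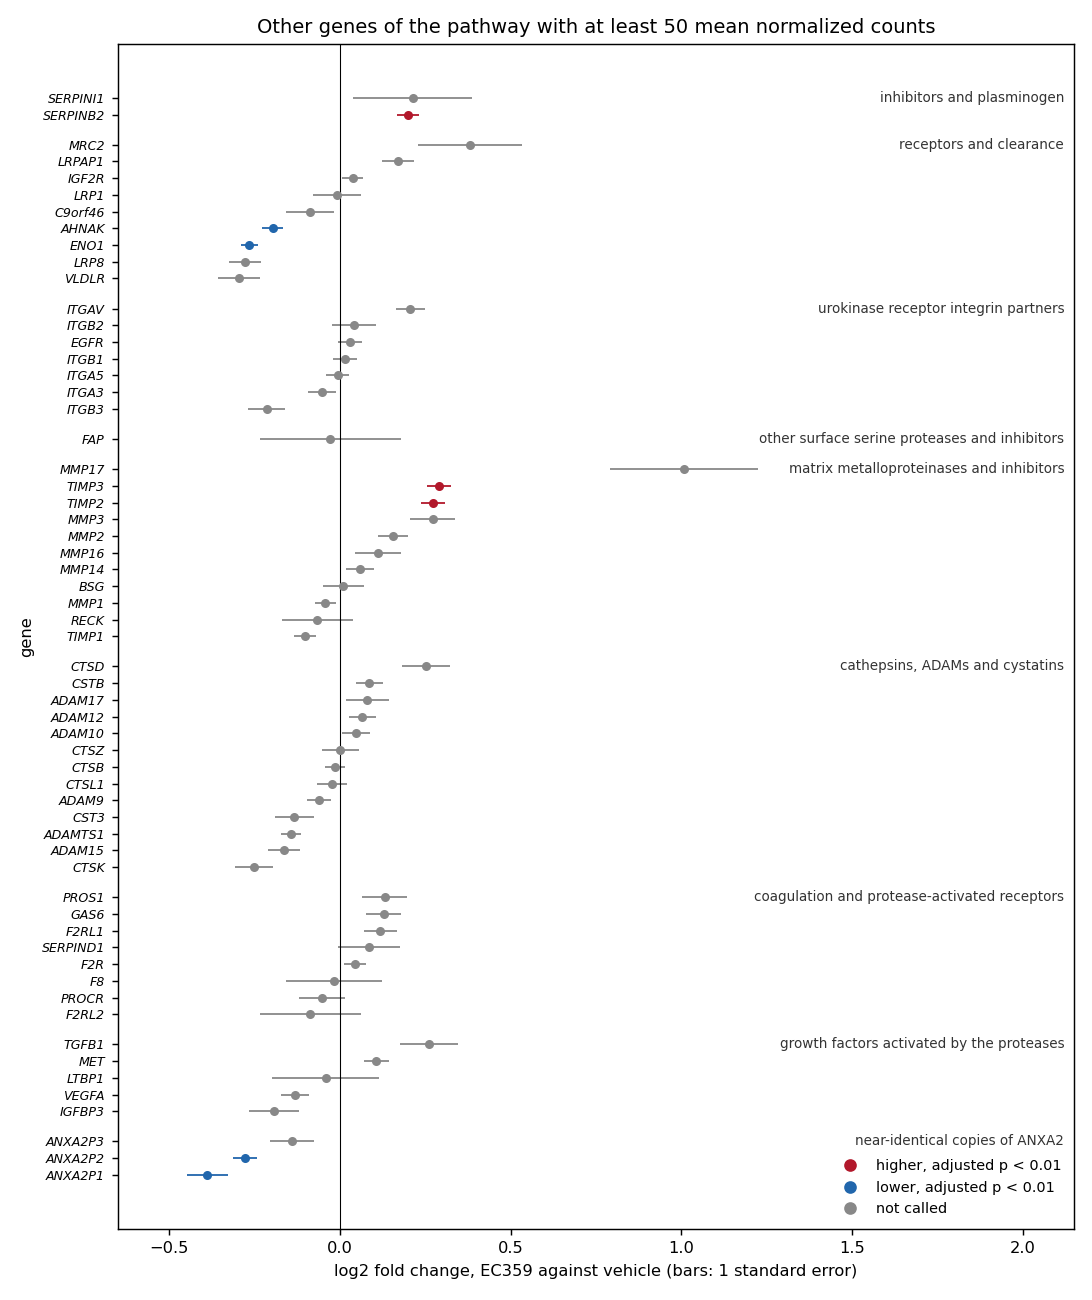
Log2 fold change of EC359 against vehicle (horizontal axis, bars of 1 standard error) for 59 genes of the wider list with at least 50 mean normalized counts, by role group. Called genes are coloured, with SERPINB2, TIMP2 and TIMP3 higher and ENO1, AHNAK, ANXA2P1 and ANXA2P2 lower.

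The genes with library patterns most like those of PLAT and ANXA2 were sought among 11196 genes, by the Euclidean distance between log2 normalized counts centred on each gene's mean over the 4 libraries. Nearest to PLAT were RBBP8 at a distance of 0.011, AP1S3 at 0.024 and ZNF75A at 0.025. RBBP8, a DNA end resection factor, had 3191 and 3285 normalized counts in vehicle and 3990 and 3984 in EC359. Nearest to ANXA2 were P4HA1 at 0.015, CDKN3 at 0.021 and PTTG1 at 0.027. P4HA1, a collagen prolyl hydroxylase subunit, had 5360 and 5312 normalized counts in vehicle and 4338 and 4272 in EC359. These distances are over 4 libraries that share the same treatments and describe only the shape of the values.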

How the data were processed

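RNA-seq counts of 4 ES2 libraries, 2 per treatment, were used, and no library was left out. The authors mapped 50-base reads, sequenced from one end, to hg19 with TopHat2 2.0.8b after CASAVA 1.8.2 (versions per the submitters' processing notes). They counted reads on RefSeq genes with HTSeq and deposited the counts without normalizing them. Reads on no gene (10.9% to 12.0%) and ambiguous reads (0.852% to 0.879%) stayed out of library sizes and tests. So did alignments that were not unique, which are also outside the base of these percentages. They numbered 15279673 and 15051182 in vehicle and 18703790 and 17374471 in EC359.

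Genes were filtered with filterByExpr (minimum count 10, minimum total 15) and compared with edgeR 4.0.16 in R 4.3.3, using TMM factors and the quasi-likelihood test without a replicate block, Benjamini-Hochberg adjustment over 12706 genes and a call at an adjusted p under 0.01. The standard error of a log2 fold change was taken from its F statistic, as the ratio of the fold change to √F. The biological coefficient of variation was 3.5%, and the common library size 28212830. Replicates differed by more than sampling noise (chi-square per degree of freedom 3.81 in vehicle and 2.72 in EC359). The study calls the libraries biologically independent without saying whether they were separate cultures, and p-values measure only the spread between them.

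Positions, lengths and shared windows are from GENCODE on GRCh37, the assembly UCSC names hg19, and 91.8% of symbols matched. The members, lists and promoter letters were chosen with earlier results of these data known. Named were all members and the copies of ANXA2, PLG, called genes of the wider list, up to 3 genes per role group with the largest absolute change at 50 or more mean normalized counts, and the 3 nearest patterns for PLAT and ANXA2. Of the genes under this rule, 1 is not reported here. The results were recomputed with DESeq2 1.42.0, RLE or upper-quartile factors, total counts only, limma 3.58.1 voom, other filters and thresholds, GC and length trends removed, a replicate block, each library left out, and ANXA2 summed with its copies.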

Additional observations from a re-analysis of the deposited data

How the results depend on the processing

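PLAT and ANXA2 were called under all 14 alternatives that used every library. The 14 include looser thresholds on the same fit, which a gene called at an adjusted p under 0.01 passes by construction. The same contrast chose the members, so this count is a description. The log2 fold changes were 0.28 to 0.34 for PLAT and -0.34 to -0.29 for ANXA2 over these and the leave-one-out fits. The whole-table, member and wider-list counts were 139, 2 and 7. DESeq2 gave 230 genes and 4 members. No filter gave 61 genes and 4 of the wider list. Removing GC trends gave 1078, 6 and 21. An adjusted p under 0.05 gave 549, 5 and 14, and an unadjusted p under 0.01 gave 1255, 6 and 21. Leaving out 1 library gave 0 to 539 genes, 0 to 4 members and 0 to 12 of the wider list. Total counts in place of TMM factors gave 120 genes, 52 higher and 68 lower, against 38 and 101. Fewer samples, other genes tested or changed thresholds were part of some settings, and the cause of the changed counts was not tested.

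With a replicate block, 1539 genes (692 higher, 847 lower), 6 members and 25 of the wider list were called, and with the block and GC trends removed 1963, 6 and 29. The labels give replicates only a number, so the main fit did not treat them as pairs. The correlation between same-numbered deviations over the tested genes was 0.11, which does not settle whether they are pairs. Replicate 1 minus replicate 2 correlated with GC percent in the same direction in both treatments, at -0.334 in vehicle and -0.221 in EC359. Whether same-numbered libraries share a batch was not tested.

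Signs turned for 4 of the named genes. PLAUR was -0.043 to 0.041 when 1 library was left out, -0.00026 with RLE factors, -0.00026 with DESeq2 and -0.00091 without a filter, with negative values of -0.043 without vehicle replicate 1 and -0.0016 without EC359 replicate 2. TFPI was -0.038 to 0.020 when 1 library was left out, 0.017 with total counts, 0.020 without vehicle replicate 1 and 0.0063 without EC359 replicate 2. ITGA3 was -0.11 to 0.0070 over the libraries left out. ITGA3 was 0.0070 and FAP 0.095 without vehicle replicate 2, and FAP 0.22 without EC359 replicate 2. Of the values of named genes under the alternatives, 507 kept their direction and call, 82 gained a call, 27 lost one and 11 turned. PLAU was called under 4 of the 14 alternatives with every library, TFPI2 under 9, S100A10 under 6, F3 under 5, and PLAUR, SERPINE2 and TFPI under none. Both tallies include the looser thresholds on the same fit, under which a value can only keep its call or gain one.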
